A study of Mus musculus with 110 samples.

Results

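Glycolysis and the handling of lactate and pyruvate were followed through 37 genes, taken by symbol from a list of pathway members that was drawn up with earlier results of these data known, among 24056 gene rows. All 37 were found. The counts came from RiboTag experiments in mice, in which ribosomes of 1 cell type carry an HA tag and are immunoprecipitated, so that an IP library holds the RNA bound to ribosomes of that cell type and an Input library the RNA before immunoprecipitation. There were 110 libraries in 4 sets, which the labels call hSyn and n_ZFP_n_Rpl (cell type neurons) and MG and n_ZFP_a_Rpl (cell type astrocytes). MG had IP libraries only. Each set held the same 4 groups: R6/2 + ZFP (RZ), R6/2 + Delta (RD), NCAR + ZFP (NZ) and NCAR + Delta (ND). R6/2 is a mouse model of Huntington's disease that carries a transgenic fragment of mutant huntingtin, ZFP is a zinc-finger protein made to repress mutant huntingtin, and Delta is its control. Both were delivered by AAV with cell-type specific expression, so every group, controls included, had received a virus. NCAR stands for the comparison genotype and is not spelled out. The strain field reads R6/2 for NCAR libraries too. The level of the huntingtin transgene was not analysed here, so the genotype and ZFP labels were not checked by it. Groups held 4 libraries per fraction, except hSyn ND with 5, and hSyn RD and n_ZFP_a_Rpl RD with 3. Age, brain region, sex, the promoters of the viruses and of the tag, and the cell type that carried ZFP in each set are left unstated in the labels. Neither do they say whether a library came from 1 animal or a pool, so p-values measure the spread between these libraries, which may be partly technical.

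As background, glycolysis splits glucose into pyruvate in the cytosol. Pyruvate is either reduced to lactate by lactate dehydrogenase or carried into mitochondria and oxidised to acetyl-CoA by the pyruvate dehydrogenase complex, which pyruvate dehydrogenase kinases switch off. In brain, astrocytes hold most of the glycogen, and they are held to be the more glycolytic cell type, while neurons take up glucose mainly through GLUT3 (Slc2a3) and lactate through MCT2 (Slc16a7). Several steps have isoforms with known cell preferences, such as aldolase C (Aldoc) in astrocytes and enolase 2 (Eno2, neuron-specific enolase) in neurons.

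IP libraries held 34.8 to 72.6 M counts and Input libraries 26.4 to 44.2 M (M for mega). Levels below are counts per M counts (CPM) after TMM scaling within a set and fraction. They are not corrected for transcript length, so levels of different genes are not set against each other. In ND, 11 astrocyte markers summed to 17100 to 21300 CPM in n_ZFP_a_Rpl IP and 6230 to 6640 in its Input, while 12 neuron markers summed to 8670 to 8980 in IP and 8160 to 8840 in Input. Astrocyte markers were higher in that IP than in its Input, and the sums of neuron markers overlapped. In n_ZFP_n_Rpl, neuron markers summed to 11300 to 11900 CPM in ND IP and 8080 to 8850 in Input, and astrocyte markers to 2790 to 3730 in IP and 7030 to 8180 in Input. In hSyn ND, the astrocyte sums of IP (5000 to 7470) and Input (6040 to 8040) overlapped. No marker of either list was at 0 in any library. Microglia markers summed to 7.68 to 29.6 CPM in IPs and 316 to 1450 in Inputs. Oligodendrocyte markers summed to 951 to 4540 CPM in IPs and 4020 to 7980 in Inputs, and markers of their precursors to 23.7 to 124 CPM in IPs and 219 to 321 in Inputs. In MG, 3 libraries (NZ 2, RZ 1 and RZ 4) deviated most from their group means over all genes, by a root mean square of 0.416, 0.357 and 0.403 on the log2 scale, against 0.257 to 0.332 for the other MG libraries. The counts for MG are given with and without them, a choice made after the data were seen.

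All 37 genes passed the filter on low counts in each fit, at very different levels. Aldoa reached 2040 CPM and Pkm 1810, while Gapdh (1.4 to 6.53 CPM), Eno1 (0.601 to 1.78), Hk2 (0.43 to 17.8), Ldhd (1.22 to 13.3) and Slc16a3 (1.11 to 6.83) were low throughout. For 7 genes RefSeq lists pseudogenes under the parent's name: Gapdh and Ldha 3 each, Aldoa, Pgam1 and Pgk1 2 each, Ldhb and Mpc1 1 each. A separate row, Eno1b, ran from 9.66 to 103 CPM where Eno1 stayed at 1.78 or less. Values of Gapdh, Eno1, Pgk1, Pgam1 and Mpc1 are therefore given as uncertain, since counting can divide or drop reads shared by near-identical copies. Whether it did was not tested. Aldoa, Ldha and Ldhb have such pseudogenes too. They had higher counts and are not marked as uncertain below, but their values and ratios carry the same limit.

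The first comparison asks which of the 37 genes were enriched on tagged ribosomes. Across all 4 groups, with edgeR's quasi-likelihood test and Benjamini-Hochberg adjustment over all genes (threshold 0.05, used throughout), 23 genes were higher and 10 lower in hSyn IP than in Input, 24 higher and 11 lower in n_ZFP_n_Rpl, and 29 higher and 5 lower in n_ZFP_a_Rpl. The background, meaning the share of all genes tested that passed, was 39.2% higher and 39.5% lower, 78.7% in all in hSyn. It was 42.6% higher and 40.7% lower, 83.3% in all in n_ZFP_n_Rpl, and 42.1% higher and 42.8% lower, 84.9% in all in n_ZFP_a_Rpl. Scaling by library totals gave 17 and 12, 21 and 13, and 27 and 9, and moved the median of all genes by -0.19 to -0.21 on the log2 scale. The background was then 21.2% higher and 55.6% lower in hSyn, 25.6% and 55.2% in n_ZFP_n_Rpl, and 28.9% and 57.1% in n_ZFP_a_Rpl. Of the 37, 22 were higher in IP in all 3 sets and 3 lower, beside 24.2% and 23.6% of the genes tested in all 3. With library totals 15 of the 22 and all 3 kept their calls. Of the other 7, Pgk1 in hSyn and Pdk2 in n_ZFP_n_Rpl changed sign (-0.0395 and -0.0379). The 15 included the housekeeping run of glycolysis: Hk1, the main brain hexokinase; Gpi1, glucose-6-phosphate isomerase; all 3 phosphofructokinase subunits (Pfkl, Pfkm, Pfkp); Aldoa; Tpi1, triosephosphate isomerase; Pkm, pyruvate kinase; and Ldha and Ldhb. Hk2, Gapdh and Pfkfb2 were lower in IP in all 3.

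Against a minimum change of 2-fold (edgeR's glmTreat), 7 genes remained higher and 2 lower in the astrocyte set, where 4.1% of all genes were higher and 11.4% lower, 15.5% in all. In each neuron set 0 were higher and 1 was lower, beside 0.0556% and 13.6% of all genes (13.6% in all) in n_ZFP_n_Rpl and 0.19% and 11.2% (11.4% in all) in hSyn. The 7 were Pygm (2.03 ± 0.08, log2 fold change ± SE as in all such values below) and Pygb (1.74 ± 0.02), the muscle and brain glycogen phosphorylases; Aldoc (2.02 ± 0.03); Pdk4 (1.19 ± 0.08), a pyruvate dehydrogenase kinase; Ldhd (1.18 ± 0.05), the mitochondrial D-lactate dehydrogenase; Pfkm (1.14 ± 0.03); and Ldhb (1.08 ± 0.02). Hk2, the inducible hexokinase, was the 1 gene lower by more than 2-fold in every set, at -3.11 ± 0.19 in hSyn, -2.17 ± 0.11 in n_ZFP_n_Rpl and -1.90 ± 0.10 in n_ZFP_a_Rpl. In the neuron sets Aldoc was lower in IP, at -0.36 ± 0.06 in hSyn and -0.76 ± 0.07 in n_ZFP_n_Rpl, and Pdk4 at -0.51 ± 0.08 and -1.06 ± 0.07.

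**Figure D1:**
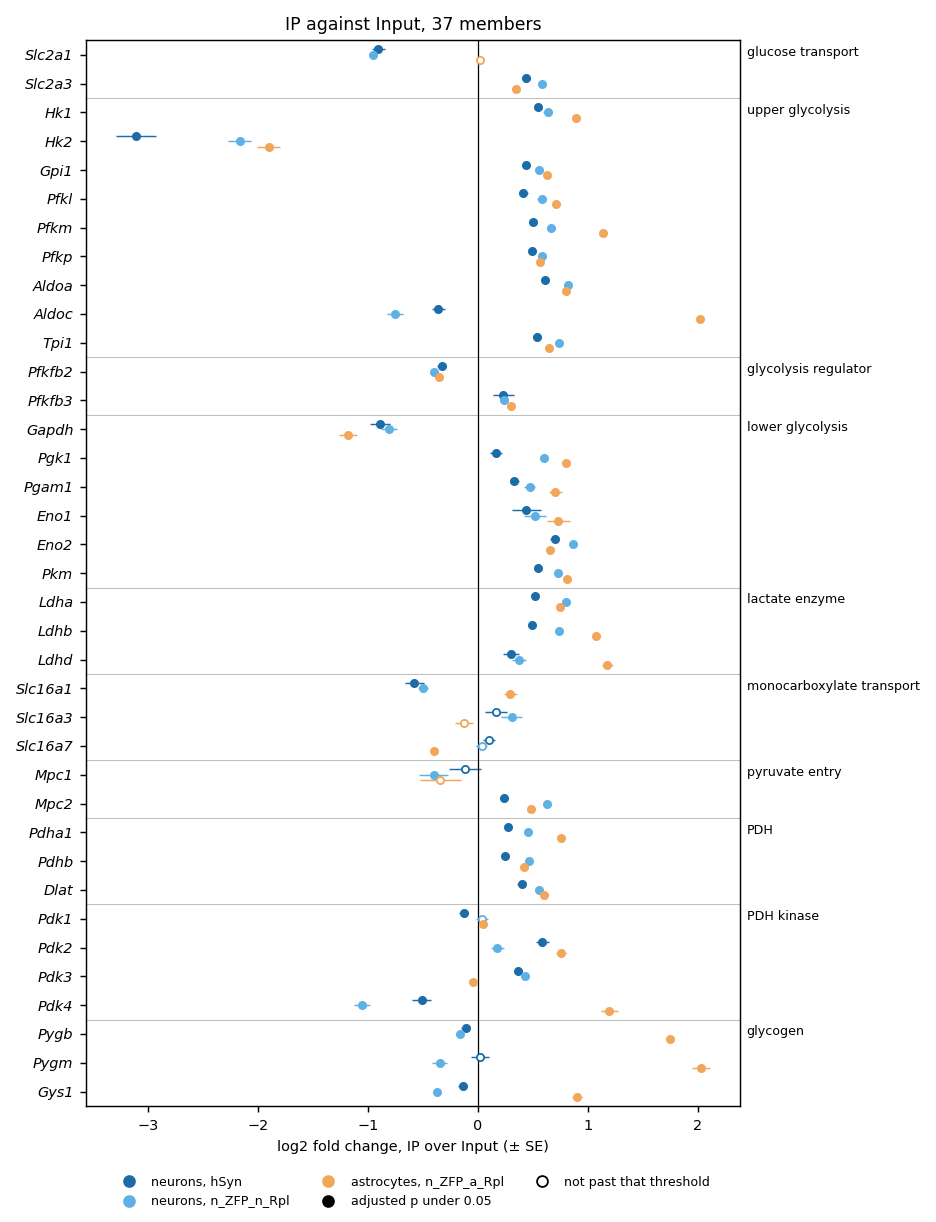
Log2 fold change of IP over Input for the 37 genes, ordered by role, with 1 colour per set and bars of 1 SE. Points right of 0 were more abundant in IP. Aldoc, Pygm, Pygb and Pdk4 lay to the right in n_ZFP_a_Rpl and lower in both neuron sets, and Hk2 lay to the left in all 3.

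Neurons were then set against astrocytes in 3 ways: IP against IP in ND within the n_ZFP sets, IP against IP in ND for hSyn against MG, and, for the n_ZFP sets, the neuron IP-over-Input ratio less the astrocyte one. The counts of higher and lower genes were 9 and 18 (background 33.2% higher and 29.9% lower, 63.2% in all), 5 and 21 (31% higher and 29.1% lower, 60% in all) and 8 and 18 (38% higher and 29.3% lower, 67.2% in all). Cell type goes with set, so set and cell type cannot be told apart in the 2 comparisons of IPs, while the comparison of ratios takes each set's own Input away. The fit of ratios did not use the pairing of IP and Input libraries. In all 3, 14 genes were lower in neurons (Aldoc, Gpi1, Gys1, Ldhb, Ldhd, Pdha1, Pdk2, Pdk4, Pfkm, Pgk1, Pygb, Pygm, Slc16a1 and Slc2a1) and 4 were higher (Mpc2, Pdk3, Slc16a3 and Slc16a7), beside 21.1% lower and 21.9% higher of the genes tested in all 3. With library totals all but Mpc2 kept their calls. Of these, the call of Gpi1 by ratios was lost on leaving out any 1 of libraries n_ZFP_a_Rpl Input RD 1, n_ZFP_a_Rpl Input RD 2 and n_ZFP_a_Rpl Input RD 3 (highest adjusted p = 0.0677) and that of the uncertain Pgk1 for hSyn against MG on leaving out any 1 of libraries MG IP ND 1 and hSyn IP ND 3 (highest adjusted p = 0.0579).

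Of the aldolases, Aldoc was lower in neurons. On a scale shared by both n_ZFP sets, Aldoc was at 231, 251, 279 and 325 CPM in ND neuron IPs and 2026, 2080, 2124 and 2200 CPM in ND astrocyte IPs. In the other sets it was at 416, 455, 459, 492 and 547 CPM in hSyn and 1953, 2438, 2529 and 2665 CPM in MG. Every neuron library was below every astrocyte library, and the differences were -2.96 ± 0.15 and -2.34 ± 0.16 (adjusted p = 2.06e-15 and 1.47e-12). Aldoa, the ubiquitous aldolase, was at 1933, 1981, 2003 and 2025 CPM in n_ZFP_n_Rpl and 1834, 1838, 1861 and 1869 CPM in n_ZFP_a_Rpl, a difference of 0.10 ± 0.04 that was past the threshold (adjusted p = 0.0345) but lost on leaving out any 1 of 7 of the 8 libraries (highest adjusted p = 0.0892). In hSyn against MG, Aldoa differed by -0.08 ± 0.07 (adjusted p = 0.292).

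The 3 glycogen genes among the 37 were lower in neurons by all 3 comparisons. Pygb was at 124, 131, 143 and 153 CPM in n_ZFP_n_Rpl and 536, 588, 601 and 632 CPM in n_ZFP_a_Rpl (-2.09 ± 0.07, adjusted p = 1.68e-18). Pygm was lower too (-2.66 ± 0.17 and, for hSyn against MG, -2.33 ± 0.21), and Gys1, glycogen synthase, differed by -1.33 ± 0.07 and -1.45 ± 0.12. After subtraction of Input, the differences of Pygb, Pygm and Gys1 were -1.92 ± 0.04, -2.39 ± 0.11 and -1.29 ± 0.06 (all adjusted p at most 1.63e-25).

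Among transporters, GLUT1 (Slc2a1), the glucose carrier of endothelium and astrocytes, was at 19.2, 20.1, 21.3 and 24.5 CPM in n_ZFP_n_Rpl and 47.1, 49.7, 49.9 and 51.9 CPM in n_ZFP_a_Rpl, and at 18.7, 19.3, 19.4, 19.9 and 20.6 CPM in hSyn and 38.5, 38.9, 41.4 and 43.3 CPM in MG. The neuron and astrocyte libraries did not overlap in either comparison (-1.22 ± 0.07 and -1.05 ± 0.08, adjusted p at most 7.2e-12). GLUT3 (Slc2a3), the high-affinity neuronal carrier, was at 202, 202, 203 and 207 CPM in n_ZFP_n_Rpl and 190.4, 190.5, 198 and 206 CPM in n_ZFP_a_Rpl, and at 131, 136, 139.6, 140.5 and 147 CPM in hSyn and 122, 135, 135 and 161 CPM in MG. Its difference was 0.05 ± 0.03 (adjusted p = 0.181) in the n_ZFP sets and 0.01 ± 0.11 (adjusted p = 0.962) for hSyn against MG. In ND, neuron markers summed to 8670 to 8980 CPM in n_ZFP_a_Rpl IP and 8160 to 8840 in its Input. In MG ND IP they summed to 9210 to 9590. The part of these markers in the Slc2a3 result was not tested.

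The lactate carriers differed in opposite directions. MCT1 (Slc16a1) was at 26.8, 29.3, 30.5 and 38.7 CPM in n_ZFP_n_Rpl and 52.8, 61.0, 63.0 and 67.2 CPM in n_ZFP_a_Rpl (-0.96 ± 0.12, adjusted p = 6.87e-08). For hSyn against MG its difference was -0.43 ± 0.16 (adjusted p = 0.02) and was lost on leaving out any 1 of libraries MG IP ND 1, MG IP ND 3, hSyn IP ND 1 and hSyn IP ND 2 (highest adjusted p = 0.0793). MCT2 (Slc16a7), the neuronal lactate importer, was at 24.0, 24.6, 28.9 and 35.7 CPM in n_ZFP_n_Rpl and 14.9, 16.7, 17.5 and 18.2 CPM in n_ZFP_a_Rpl, and was higher in neurons by 0.75 ± 0.10 and, for hSyn against MG, 0.44 ± 0.12 (adjusted p at most 0.00234). Slc16a3 (MCT4), the low-affinity exporter usually ascribed to astrocytes, was low in every IP and higher in neurons: the n_ZFP values were 3.29, 4.46, 4.87 and 5.12 CPM in neurons and 2.23, 2.42, 2.92 and 3.03 CPM in astrocytes (0.74 ± 0.18, adjusted p = 0.000876). For hSyn against MG its difference was 0.62 ± 0.23, lost on leaving out any 1 of libraries MG IP ND 2, MG IP ND 4 and hSyn IP ND 1 (highest adjusted p = 0.061).

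Of the lactate dehydrogenase subunits, Ldhb was lower in neurons in both comparisons of IPs. Ldha, the subunit of the pyruvate-reducing M form, was at 216, 240.5, 241 and 256 CPM in n_ZFP_n_Rpl and 205, 206, 209.8 and 221 CPM in n_ZFP_a_Rpl (0.18 ± 0.06, adjusted p = 0.00634), and differed by -0.05 ± 0.08 in hSyn against MG (adjusted p = 0.554). Ldhb, the subunit of the H form that is usually ascribed to neurons, was at 393, 396, 408 and 434 CPM in n_ZFP_n_Rpl and 509.6, 539, 546 and 551 CPM in n_ZFP_a_Rpl, with differences of -0.40 ± 0.04 and, for hSyn against MG, -0.45 ± 0.09 (adjusted p at most 5.64e-05). The log2 ratio of Ldha to Ldhb, which is read only between groups, ran over -0.92 to -0.63 in n_ZFP_n_Rpl ND and -1.41 to -1.20 in n_ZFP_a_Rpl ND, and over -1.76 to -1.48 in hSyn and -2.10 to -1.83 in MG. Each neuron range lay above its astrocyte range.

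Of the phosphofructokinase and enolase genes, Pfkm was lower in neurons. It was at 368, 404, 425 and 456 CPM in n_ZFP_n_Rpl and 570.2, 578, 582 and 592 CPM in n_ZFP_a_Rpl (-0.49 ± 0.05, adjusted p = 5.35e-09). Pfkp, the platelet isoform that brain also holds, differed by 0.24 ± 0.06 in the n_ZFP sets (adjusted p = 0.001) and -0.02 ± 0.06 in hSyn against MG (adjusted p = 0.754), and Pfkl, the liver isoform, by 0.04 ± 0.06 (adjusted p = 0.534) and -0.30 ± 0.06 (adjusted p = 0.000103). Eno2 was at 1303, 1310, 1327 and 1332 CPM in n_ZFP_n_Rpl and 1145, 1170, 1232 and 1245 CPM in n_ZFP_a_Rpl, a difference of 0.14 ± 0.04 (adjusted p = 0.00942). For hSyn against MG it was 0.16 ± 0.08 (adjusted p = 0.102), beside sums of neuron markers of 11900 to 13000 CPM in hSyn and 9210 to 9590 in MG. The part of these markers in the result was not tested.

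Of the pyruvate dehydrogenase kinases, Pdk4 was at 6.29, 6.81, 7.01 and 7.08 CPM in n_ZFP_n_Rpl and 28.7, 35.9, 36.4 and 38.9 CPM in n_ZFP_a_Rpl, without overlap (-2.36 ± 0.12, adjusted p = 2.31e-15). Pdk2, the kinase found most widely, was also lower in neurons (-0.50 ± 0.09 and -0.74 ± 0.14), and Pdk3 was higher (0.25 ± 0.04 and 0.60 ± 0.06). The E1 alpha subunit Pdha1 differed by -0.45 ± 0.05 and -0.58 ± 0.05, while Mpc2, a subunit of the mitochondrial pyruvate carrier, was higher by 0.13 ± 0.05 and 0.22 ± 0.08. The n_ZFP call of Mpc2 was lost on leaving out any 1 of libraries n_ZFP_a_Rpl IP ND 1, n_ZFP_a_Rpl IP ND 2, n_ZFP_n_Rpl IP ND 1, n_ZFP_n_Rpl IP ND 3 and n_ZFP_n_Rpl IP ND 4 (highest adjusted p = 0.116).

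**Figure D2:**
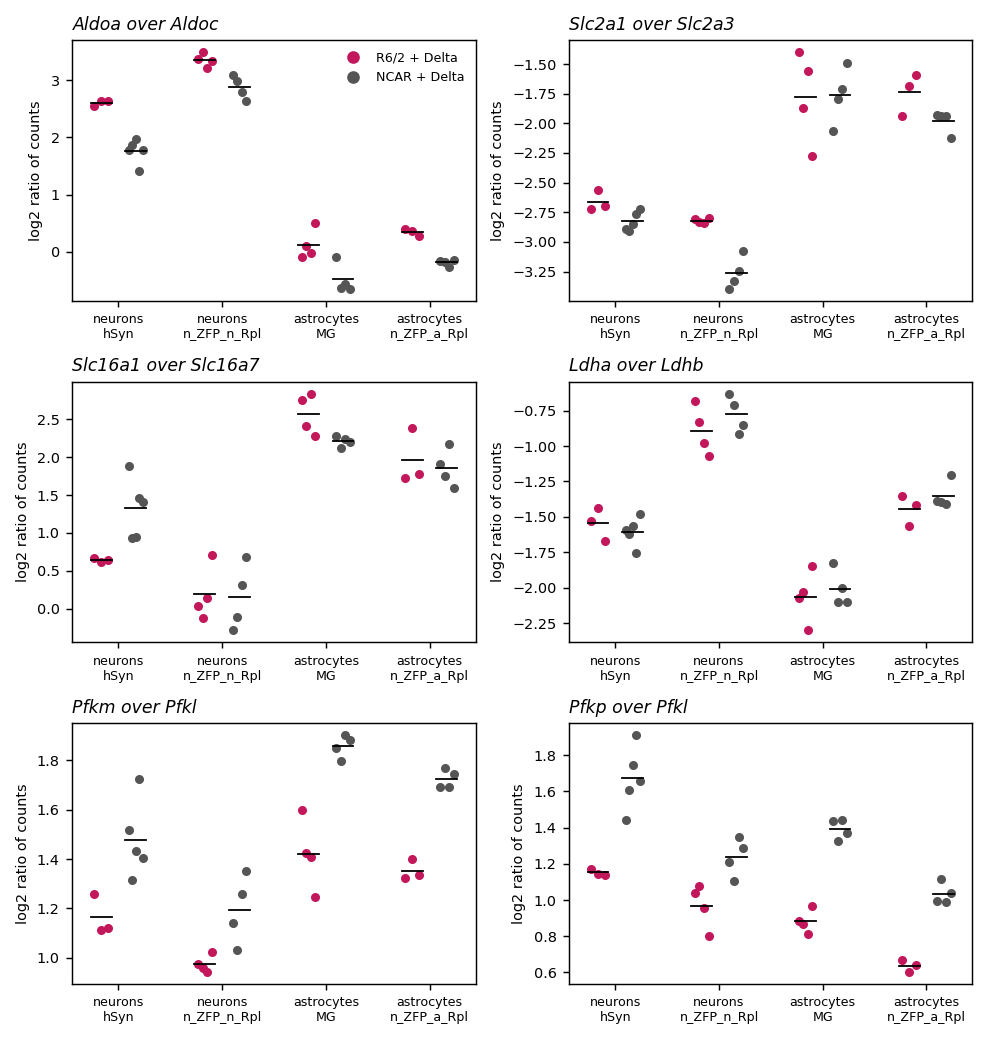
Log2 ratio of isoform pairs in every RD and ND IP library, with 1 point per library, by set and group. Ratios of CPM are not per transcript length, so each panel is read across groups only. The Aldoa to Aldoc ratio ran over 2.64 to 3.10 in n_ZFP_n_Rpl ND and 1.42 to 1.98 in hSyn ND, against -0.26 to -0.14 in n_ZFP_a_Rpl ND and -0.66 to -0.10 in MG ND.

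The second comparison, R6/2 + Delta against NCAR + Delta, gives the genotype difference without ZFP. Among the 37 genes, 8 rose and 11 fell in hSyn IP (background 25.4% higher and 25.5% lower, 51% in all), 5 rose and 15 fell in n_ZFP_n_Rpl IP (25.2% higher and 26.2% lower, 51.4% in all), 2 rose and 7 fell in MG IP (17.4% higher and 16.2% lower, 33.5% in all), and 6 rose and 15 fell in n_ZFP_a_Rpl IP (20.6% higher and 24.7% lower, 45.3% in all). These are 19, 20, 9 and 21 of the 37 genes, a share below the background in MG, above it in n_ZFP_a_Rpl and close to it in the other sets. This order depends on the scaling, as given below. Without the 3 MG libraries that stood apart, which share the fit, 14 passed in MG, beside 42.3% of all genes. The split by direction depends on the scaling: with library totals alone, which moved the median of all genes up by 0.15 to 0.2 on the log2 scale, the rises and falls were 12 and 7 in hSyn, 12 and 6 in n_ZFP_n_Rpl, 8 and 3 in MG, and 12 and 4 in n_ZFP_a_Rpl. The shares of all genes were then 58.5% in hSyn, 61.3% in n_ZFP_n_Rpl, 45.6% in MG and 57.5% in n_ZFP_a_Rpl, and that of the 37 was below them in all 4. The median log2 change of the 37 genes was -0.07 in hSyn, -0.13 in n_ZFP_n_Rpl, 0 in MG and -0.08 in n_ZFP_a_Rpl, beside medians of all genes between -0.002 and 0.035. Over the 4 IPs, 30 of the 37 passed in at least 1 and 7 in none (Eno1, Gys1, Mpc1, Pdhb, Pdk4, Pgam1 and Slc16a3), and 0 passed in opposite directions in different IPs.

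A group of 5 genes moved the same way in all 4 IPs: Pfkp, Aldoc, Eno2 and Ldhd fell and Pdk1 rose. Of the 14728 genes tested in all 4 IPs, 11.2% fell and 8.83% rose in all 4, 20.1% together. The share of the 37 that did so was below that of all genes. The comparisons of each IP have their own control libraries. Beside these changes, astrocyte markers summed to 2270 to 2820 CPM in hSyn RD IP and 5000 to 7470 in ND, 1390 to 1930 in n_ZFP_n_Rpl RD and 2790 to 3730 in ND, 11800 to 16600 in MG RD and 19400 to 24500 in ND, and 13300 to 14400 in n_ZFP_a_Rpl RD and 17100 to 21300 in ND. Neuron markers summed to 7550 to 7720 CPM in hSyn RD IP and 11900 to 13000 in ND, 6390 to 7250 in n_ZFP_n_Rpl RD and 11300 to 11900 in ND, 5240 to 6590 in MG RD and 9210 to 9590 in ND, and 5100 to 5530 in n_ZFP_a_Rpl RD and 8670 to 8980 in ND. Both marker sums were lower in RD in all 4 IPs without overlap, and their part in the results was not tested. Microglia markers summed to 12.6 to 14.1 CPM in hSyn RD IP and 19.9 to 29.5 in ND, and to 9.9 to 11.3 in MG RD and 12.6 to 14.5 in ND. The ribosomal RNA precursor Rn45s took 0.0409 to 0.0661% of counts in MG RD IP and 0.105 to 0.314% in ND, and 0.0138 to 0.0179% in n_ZFP_n_Rpl RD and 0.00933 to 0.013% in ND, while its ranges overlapped in the other IPs. In MG IP, Rn45s took 0.0306 to 0.0881% in NZ and 0.0241 to 0.0409% in RZ, so all comparisons with MG ND share this difference. The part of the microglia markers and of Rn45s was not tested either. In these bulk libraries, fewer cells of a type, less RNA per cell and lower expression of the marker genes themselves cannot be told apart. The marker sums are therefore not a measure of cell content.

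Ldhd, which oxidises D-lactate to pyruvate in mitochondria, had the largest fold change of the 5 in every IP. In hSyn IP it was at 1.32, 1.41 and 1.58 CPM in RD and 3.71, 4.56, 4.64, 4.74 and 5.88 CPM in ND, and in n_ZFP_n_Rpl IP at 1.47, 1.62, 1.91 and 1.96 CPM in RD and 5.94, 6.50, 7.59 and 8.29 CPM in ND. In MG IP it was at 3.25, 4.60, 4.67 and 5.17 CPM in RD and 7.39, 7.99, 8.20 and 8.35 CPM in ND, and in n_ZFP_a_Rpl IP at 4.77, 5.71 and 6.52 CPM in RD and 9.67, 11.0, 11.4 and 13.3 CPM in ND. RD libraries lay below all ND libraries of the same set, and the fold changes were larger in the neuron sets. The log2 fold changes were -1.71 ± 0.17 in hSyn, -2.02 ± 0.12 in n_ZFP_n_Rpl, -0.85 ± 0.15 in MG and -1.0 ± 0.11 in n_ZFP_a_Rpl (adjusted p = 2.7e-07, 6.81e-09, 0.000451 and 3.77e-06). In Input, Ldhd changed by -1.63 ± 0.17 in hSyn, -1.60 ± 0.15 in n_ZFP_n_Rpl and -1.32 ± 0.10 in n_ZFP_a_Rpl.

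Aldoc, the aldolase of astrocytes, fell in neuron and astrocyte IPs alike. In hSyn IP it was at 258, 260.0 and 276 CPM in RD and 415, 454, 456, 489 and 541 CPM in ND, and in n_ZFP_n_Rpl IP at 166, 175, 178 and 192 CPM in RD and 234, 253, 283 and 327 CPM in ND. In MG IP it was at 1325, 1677, 1691 and 1769 CPM in RD and 1963, 2452, 2543 and 2677 CPM in ND, and in n_ZFP_a_Rpl IP at 1308, 1344 and 1466 CPM in RD and 2008, 2060, 2105 and 2179 CPM in ND. In each set every RD library was below every ND library. The log2 fold changes were -0.83 ± 0.15 in hSyn, -0.62 ± 0.17 in n_ZFP_n_Rpl, -0.58 ± 0.18 in MG and -0.61 ± 0.07 in n_ZFP_a_Rpl (adjusted p = 0.000329, 0.00693, 0.0191 and 7.05e-06). The MG call was lost on leaving out any 1 of libraries ND 2 and RD 4 (highest adjusted p = 0.0581). In Input, Aldoc changed by -0.77 ± 0.07 in hSyn, -0.71 ± 0.10 in n_ZFP_n_Rpl and -0.80 ± 0.05 in n_ZFP_a_Rpl.

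Eno2, the neuronal enolase, fell in all 4 IPs. In hSyn IP it was at 801, 853 and 903 CPM in RD and 1038, 1125, 1133, 1153 and 1178 CPM in ND, and in n_ZFP_n_Rpl IP at 902, 955, 978 and 1008 CPM in RD and 1312, 1320, 1343 and 1349 CPM in ND. In MG IP it was at 584, 649.7, 731 and 804 CPM in RD and 935, 992, 1041 and 1105 CPM in ND, and in n_ZFP_a_Rpl IP at 697, 721 and 770.4 CPM in RD and 1135, 1158, 1221 and 1234 CPM in ND. The RD and ND libraries did not overlap in any set. The log2 fold changes were -0.40 ± 0.08 in hSyn, -0.47 ± 0.05 in n_ZFP_n_Rpl, -0.56 ± 0.10 in MG and -0.70 ± 0.05 in n_ZFP_a_Rpl (adjusted p = 0.000312, 1.67e-06, 0.000544 and 2.41e-08). In Input, Eno2 changed by -0.31 ± 0.09 in hSyn, -0.41 ± 0.05 in n_ZFP_n_Rpl and -0.67 ± 0.05 in n_ZFP_a_Rpl.

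Pfkp, the platelet isoform of phosphofructokinase, fell by 0.24 to 0.30 on the log2 scale. In hSyn IP it was at 321, 339 and 357 CPM in RD and 378, 411, 418, 424 and 429 CPM in ND, and in n_ZFP_n_Rpl IP at 307, 342, 373 and 380.3 CPM in RD and 396, 409.9, 430.3 and 484 CPM in ND. In MG IP it was at 315, 340.4, 374 and 403 CPM in RD and 411, 414, 433 and 438 CPM in ND, and in n_ZFP_a_Rpl IP at 288, 298 and 302 CPM in RD and 347, 354, 354 and 374 CPM in ND. RD libraries were again below ND libraries, close to them in several sets. The log2 fold changes were -0.28 ± 0.06 in hSyn, -0.30 ± 0.07 in n_ZFP_n_Rpl, -0.24 ± 0.08 in MG and -0.27 ± 0.05 in n_ZFP_a_Rpl (adjusted p = 0.000641, 0.0022, 0.0224 and 0.000243). With library totals alone the change was -0.12 in hSyn, -0.11 in n_ZFP_n_Rpl and -0.11 in MG, no longer past the threshold, and stayed past it in n_ZFP_a_Rpl. The MG call was also lost on leaving out any 1 of libraries ND 1, ND 3, RD 1 and RD 3 (highest adjusted p = 0.0579). The other 4 genes kept their calls in all 4 IPs with library totals.

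Pdk1, a kinase that inactivates pyruvate dehydrogenase, rose in all 4 IPs. In hSyn IP it was at 63.6, 68.8 and 70.0 CPM in RD and 27.4, 29.7, 33.6, 34.0 and 35.9 CPM in ND, and in n_ZFP_n_Rpl IP at 75.4, 77.6, 80.5 and 87.0 CPM in RD and 41.9, 43.9, 52.4 and 64.9 CPM in ND. In MG IP it was at 68.8, 72.4, 73.9 and 74.8 CPM in RD and 43.1, 43.3, 46.1 and 46.1 CPM in ND, and in n_ZFP_a_Rpl IP at 70.0, 71.1 and 73.6 CPM in RD and 47.2, 48.3, 48.6 and 49.7 CPM in ND. All RD libraries were above all ND libraries. The log2 fold changes were 1.07 ± 0.08 in hSyn, 0.66 ± 0.11 in n_ZFP_n_Rpl, 0.70 ± 0.06 in MG and 0.56 ± 0.04 in n_ZFP_a_Rpl (adjusted p = 2.42e-08, 0.0001, 3.69e-07 and 2.54e-08). In Input, Pdk1 changed by 0.79 ± 0.08 in hSyn, 0.62 ± 0.10 in n_ZFP_n_Rpl and 0.73 ± 0.04 in n_ZFP_a_Rpl.

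**Figure D3:**
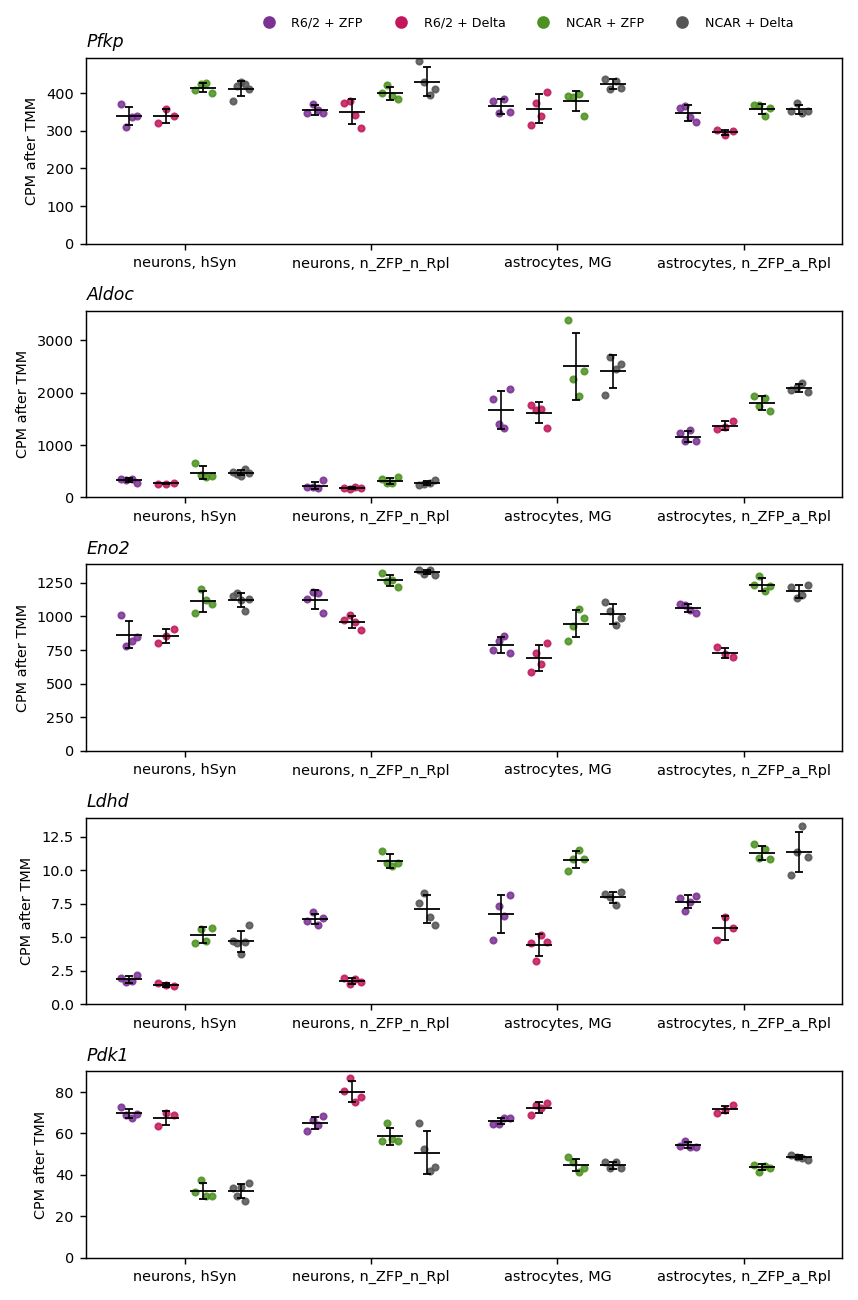
CPM of Aldoc, Eno2, Ldhd, Pfkp and Pdk1 in every IP library, with 1 point per library, 1 panel per gene and the mean with SD bars per group. In each set the RD points lie apart from the ND points, below them for Aldoc, Eno2, Ldhd and Pfkp and above them for Pdk1.

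The promoters of these 5 genes, of which 4 fell and 1 rose in every IP, are shown as a window upstream of a RefSeq start (GRCm38.p6, 5′ to 3′ on the gene's strand): Ldhd at chr8:111630337-111630586 on the minus strand, Aldoc at chr11:78322823-78323072 on the plus strand, Eno2 at chr6:124769674-124769923 on the minus strand, Pfkp at chr13:6648772-6649021 on the minus strand and Pdk1 at chr2:71872974-71873223 on the plus strand. Aldoc and Pdk1 have more than 1 start in the promoter table, and the first is shown. The RefSeq gene records of Pfkp and Pdk1 begin further upstream than these starts. Capitals mark the letters ACGTG, the core to which hypoxia-inducible factors bind (CACGTG, an E-box, contains it), and GGGCGG, the GC box, each on either strand.
Ldhd: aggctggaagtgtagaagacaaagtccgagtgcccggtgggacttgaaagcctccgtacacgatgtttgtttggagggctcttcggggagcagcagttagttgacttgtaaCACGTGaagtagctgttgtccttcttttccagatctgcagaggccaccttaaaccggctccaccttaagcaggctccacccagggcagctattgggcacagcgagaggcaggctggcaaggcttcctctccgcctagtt
Aldoc: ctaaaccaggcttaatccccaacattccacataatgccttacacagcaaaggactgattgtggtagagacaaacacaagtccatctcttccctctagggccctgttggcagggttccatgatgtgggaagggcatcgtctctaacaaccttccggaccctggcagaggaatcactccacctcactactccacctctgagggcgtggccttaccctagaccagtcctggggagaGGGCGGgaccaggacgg
Eno2: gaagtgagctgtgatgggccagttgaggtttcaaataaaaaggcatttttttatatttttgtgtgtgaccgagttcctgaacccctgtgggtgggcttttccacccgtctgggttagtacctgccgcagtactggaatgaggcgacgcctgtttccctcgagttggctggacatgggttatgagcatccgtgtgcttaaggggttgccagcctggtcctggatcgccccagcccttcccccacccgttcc
Pfkp: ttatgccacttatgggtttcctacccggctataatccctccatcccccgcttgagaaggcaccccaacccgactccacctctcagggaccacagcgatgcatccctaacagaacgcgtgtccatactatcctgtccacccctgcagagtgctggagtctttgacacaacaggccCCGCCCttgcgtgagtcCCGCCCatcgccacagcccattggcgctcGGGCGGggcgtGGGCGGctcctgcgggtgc
Pdk1: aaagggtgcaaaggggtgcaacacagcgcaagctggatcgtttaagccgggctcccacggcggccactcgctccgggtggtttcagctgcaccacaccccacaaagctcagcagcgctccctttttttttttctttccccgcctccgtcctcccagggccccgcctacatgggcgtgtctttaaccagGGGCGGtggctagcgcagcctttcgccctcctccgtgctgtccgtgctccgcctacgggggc
The Ldhd window held 1 CACGTG. Aldoc and Pdk1 held a GC box without ACGTG, Pfkp held several GC boxes, and Eno2 held neither. Of 27025 mouse promoters of this length, 16.6% held ACGTG, 6.05% CACGTG and 32.9% GGGCGG. Of the 35 genes of the set with a promoter in the table, 16 (45.7%) held ACGTG, 6 (17.1%) CACGTG and 20 (57.1%) GGGCGG. The 27025 promoters were not matched to the set by expression or base content, and each of the words contains CG. The shares therefore cannot show an excess of any 1 word that is particular to the set. A match is a run of letters, and no binding was measured.

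Of the glucose carriers, Slc2a1 rose in both neuron IPs. It was at 23.6, 23.8 and 24.3 CPM in hSyn RD IP and 18.6, 19.1, 19.3, 19.8 and 20.5 CPM in ND, and at 26.4, 27.2, 27.6 and 28.9 CPM in n_ZFP_n_Rpl RD and 19.5, 20.3, 21.6 and 24.7 CPM in ND. The changes were 0.30 ± 0.08 and 0.36 ± 0.07, with adjusted p = 0.00423 and 0.000413. It was not past the threshold in MG (-0.06 ± 0.09) or n_ZFP_a_Rpl (0.08 ± 0.07). Endothelial markers summed to 13.9 to 14.8 CPM in hSyn RD and 19.5 to 28.2 in ND, and to 7.85 to 11.8 in n_ZFP_n_Rpl RD and 10.8 to 15.2 in ND, and were not higher in RD. Slc2a3 had log2 fold changes of 0.13 ± 0.06 in hSyn, -0.08 ± 0.03 in n_ZFP_n_Rpl, -0.05 ± 0.15 in MG and -0.17 ± 0.04 in n_ZFP_a_Rpl (adjusted p = 0.0966, 0.0607, 0.831 and 0.00368). Its fall in n_ZFP_a_Rpl did not hold with library totals. In hSyn and n_ZFP_n_Rpl the log2 Slc2a1 to Slc2a3 ratio lay above ND in every RD library, over -2.721 to -2.564 in RD and -2.910 to -2.724 in ND, and over -2.84 to -2.79 in RD and -3.40 to -3.08 in ND.

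Of the hexokinases, Hk2 fell in hSyn IP, where it was at 0.43, 0.459 and 0.502 CPM in RD and 0.887, 1.15, 1.35, 2.03 and 2.03 CPM in ND (-1.68 ± 0.35, adjusted p = 0.000781). Microglia and endothelial markers were lower in RD in that IP too, without overlap, as given above, and their part was not tested. In the other IPs Hk2 had -0.37 ± 0.26, 0.07 ± 0.22 and -0.40 ± 0.25 (n_ZFP_n_Rpl, MG and n_ZFP_a_Rpl), not past the threshold. The main hexokinase Hk1 had 0.18 ± 0.05 in hSyn, 0.02 ± 0.09 in n_ZFP_n_Rpl, 0.05 ± 0.10 in MG and -0.07 ± 0.03 in n_ZFP_a_Rpl (adjusted p = 0.00914, 0.869, 0.73 and 0.114), and its hSyn call was lost on leaving out library RD 2 (highest adjusted p = 0.0998). Pfkl, the liver phosphofructokinase, had 0.24 ± 0.07 in hSyn, -0.04 ± 0.08 in n_ZFP_n_Rpl, 0.27 ± 0.07 in MG and 0.13 ± 0.03 in n_ZFP_a_Rpl (adjusted p = 0.00742, 0.719, 0.00615 and 0.00369), a rise in 3 of the 4, of which that in hSyn was lost on leaving out library RD 2 (highest adjusted p = 0.0518). Pfkm had -0.08 ± 0.07 in hSyn, -0.25 ± 0.06 in n_ZFP_n_Rpl, -0.18 ± 0.06 in MG and -0.24 ± 0.05 in n_ZFP_a_Rpl (adjusted p = 0.354, 0.00153, 0.044 and 0.00139), a fall in 3 that library totals did not keep. The MG fall of Pfkm was also lost on leaving out any 1 of 7 of the 8 libraries (highest adjusted p = 0.0977).

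Ratios of genes within a library do not depend on the scaling. The log2 Pfkm to Pfkl ratio was lower in RD without overlap in all 4 IPs: 1.11 to 1.26 in hSyn RD and 1.31 to 1.73 in ND, 0.94 to 1.02 in n_ZFP_n_Rpl RD and 1.03 to 1.35 in ND, 1.25 to 1.60 in MG RD and 1.80 to 1.90 in ND, and 1.32 to 1.40 in n_ZFP_a_Rpl RD and 1.69 to 1.77 in ND. The Pfkp to Pfkl ratio was likewise lower in all 4, over 1.14 to 1.17 in hSyn RD and 1.45 to 1.91 in ND, and over 0.60 to 0.67 in n_ZFP_a_Rpl RD and 0.99 to 1.12 in ND. The Aldoa to Aldoc ratio was higher in RD without overlap in hSyn (2.55 to 2.65 in RD and 1.42 to 1.98 in ND), n_ZFP_n_Rpl (3.21 to 3.49 in RD and 2.64 to 3.10 in ND) and n_ZFP_a_Rpl (0.27 to 0.39 in RD and -0.26 to -0.14 in ND), while in MG the ranges overlapped. The Ldha to Ldhb ratio overlapped between RD and ND in all 4 IPs.

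Pfkfb2 and Pfkfb3, bifunctional enzymes that set the level of a fructose bisphosphate that activates phosphofructokinase, each fell in 3 of the 4 IPs. Pfkfb3 was at 36.6, 42.0 and 43.8 CPM in hSyn RD IP and 55.2, 61.9, 64.9, 81.2 and 94.4 CPM in ND, and at 35.1, 40.0, 40.8 and 41.6 CPM in n_ZFP_n_Rpl RD and 60.5, 63.0, 71.3 and 71.4 CPM in ND. Its log2 fold changes were -0.81 ± 0.20 in hSyn, -0.76 ± 0.06 in n_ZFP_n_Rpl, -0.32 ± 0.08 in MG and -0.04 ± 0.07 in n_ZFP_a_Rpl (adjusted p = 0.00425, 1.25e-07, 0.00773 and 0.685). The MG fall did not hold with library totals, and the n_ZFP_a_Rpl difference did not pass. Pfkfb2 had -0.25 ± 0.08 in hSyn, -0.18 ± 0.08 in n_ZFP_n_Rpl, -0.24 ± 0.07 in MG and -0.21 ± 0.07 in n_ZFP_a_Rpl (adjusted p = 0.015, 0.0821, 0.0132 and 0.0183). Its 3 falls did not hold with library totals.

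Along the rest of the pathway, Gpi1 rose in hSyn (0.21 ± 0.05) and n_ZFP_n_Rpl (0.16 ± 0.05), with 0.09 ± 0.09 in MG and 0.04 ± 0.03 in n_ZFP_a_Rpl (adjusted p = 0.00298, 0.00727, 0.463 and 0.387). Aldoa had 0.02 ± 0.07 in hSyn, -0.14 ± 0.05 in n_ZFP_n_Rpl, 0.03 ± 0.08 in MG and -0.08 ± 0.04 in n_ZFP_a_Rpl (adjusted p = 0.803, 0.0312, 0.794 and 0.0926). Tpi1 had -0.16 ± 0.07 in hSyn, -0.13 ± 0.04 in n_ZFP_n_Rpl, 0.05 ± 0.06 in MG and -0.18 ± 0.04 in n_ZFP_a_Rpl (adjusted p = 0.0704, 0.0195, 0.594 and 0.00113). Pkm had -0.07 ± 0.05 in hSyn, -0.17 ± 0.04 in n_ZFP_n_Rpl, 0.03 ± 0.07 in MG and -0.12 ± 0.04 in n_ZFP_a_Rpl (adjusted p = 0.266, 0.00207, 0.798 and 0.0141). With library totals, the falls of Aldoa, Tpi1 and Pkm in n_ZFP_n_Rpl and of Pkm in n_ZFP_a_Rpl turned positive, and that of Tpi1 in n_ZFP_a_Rpl no longer passed. Pgk1, phosphoglycerate kinase and uncertain, rose in n_ZFP_a_Rpl (0.15 ± 0.04, adjusted p = 0.0134). Gapdh, which is uncertain, had 0.62 ± 0.24, 0.65 ± 0.14 and 0.50 ± 0.16 in hSyn, n_ZFP_n_Rpl and n_ZFP_a_Rpl, all past the threshold, and 0.12 ± 0.17 in MG, which was not; the hSyn call was lost on leaving out any 1 of libraries ND 1, ND 2, ND 3, RD 1 and RD 3 (highest adjusted p = 0.124), and the n_ZFP_a_Rpl call on leaving out library RD 2 (highest adjusted p = 0.131).

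Lactate dehydrogenase fell in both neuron IPs. Ldha was at 131, 138 and 147 CPM in hSyn RD and 162, 164, 167, 169 and 175 CPM in ND, at 148, 161, 162 and 178 CPM in n_ZFP_n_Rpl RD and 219, 242, 243 and 259 CPM in ND, and at 167, 181 and 196 CPM in n_ZFP_a_Rpl RD and 203, 204, 208 and 219 CPM in ND. Its log2 fold changes were -0.27 ± 0.06 in hSyn, -0.57 ± 0.06 in n_ZFP_n_Rpl, -0.10 ± 0.10 in MG and -0.20 ± 0.05 in n_ZFP_a_Rpl (adjusted p = 0.00117, 1.24e-06, 0.457 and 0.00712). The n_ZFP_n_Rpl fall was kept with library totals, and those in hSyn and n_ZFP_a_Rpl were not. Ldhb was at 398, 398 and 417 CPM in hSyn RD and 467, 489, 517, 518 and 556 CPM in ND, and at 286, 288, 311 and 318 CPM in n_ZFP_n_Rpl RD and 396, 401, 413 and 437 CPM in ND. It had -0.33 ± 0.06 in hSyn, -0.45 ± 0.05 in n_ZFP_n_Rpl, -0.05 ± 0.11 in MG and -0.11 ± 0.04 in n_ZFP_a_Rpl (adjusted p = 0.00027, 1.24e-06, 0.783 and 0.0423). The n_ZFP_a_Rpl call of Ldhb was lost on leaving out any 1 of 6 of the 7 libraries (highest adjusted p = 0.136) and changed sign with library totals (0.06).

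Of the lactate carriers, Slc16a1 fell in hSyn IP, where microglia and endothelial markers were lower too, at 23.6, 26.5 and 27.2 CPM in RD and 33.3, 38.8, 47.1, 55.2 and 56.6 CPM in ND (-0.84 ± 0.20, adjusted p = 0.00308), and in n_ZFP_n_Rpl (-0.27 ± 0.11, adjusted p = 0.0441), where the call was lost on leaving out any 1 of libraries ND 3, ND 4, RD 1, RD 2 and RD 3 (highest adjusted p = 0.185). It was not past the threshold in MG (0.09 ± 0.12), where microglia markers were lower as well, or n_ZFP_a_Rpl (-0.12 ± 0.13). In hSyn IP, oligodendrocyte markers summed to 1030 to 1560 CPM in RD and 1080 to 1430 in ND. Markers of their precursors summed to 28.9 to 36.8 CPM in RD and 27.1 to 29.3 in ND, so neither list was lower. The part of all these markers in the Slc16a1 result was not tested. Slc16a7 fell in n_ZFP_n_Rpl (-0.32 ± 0.12, lost on leaving out any 1 of libraries ND 1, ND 2, RD 3 and RD 4 (highest adjusted p = 0.124)) and n_ZFP_a_Rpl (-0.22 ± 0.08, lost on leaving out any 1 of libraries ND 1, ND 2, ND 4 and RD 2 (highest adjusted p = 0.249)), with -0.14 ± 0.11 in hSyn and -0.28 ± 0.14 in MG. The Slc16a1 to Slc16a7 ratio was lower in hSyn RD (0.61 to 0.67) than ND (0.93 to 1.89) and higher in MG RD (2.28 to 2.84) than ND (2.12 to 2.27), without overlap in either. Slc16a3 had 0.04 ± 0.19 in hSyn, -0.04 ± 0.18 in n_ZFP_n_Rpl, 0.38 ± 0.27 in MG and 0.11 ± 0.18 in n_ZFP_a_Rpl, past the threshold in none.

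At the entry to mitochondria, Pdha1 rose in hSyn (0.23 ± 0.04), n_ZFP_n_Rpl (0.23 ± 0.05) and n_ZFP_a_Rpl (0.14 ± 0.04), with 0.16 ± 0.07 in MG (adjusted p = 0.0852). Dlat, the E2 subunit of the complex, rose in hSyn (0.32 ± 0.08, adjusted p = 0.00296). Pdk2 fell in n_ZFP_a_Rpl (-0.21 ± 0.07) and Pdk3 there too (-0.20 ± 0.04), neither kept with library totals. Pdk4 had -0.39 ± 0.19 in hSyn, -0.14 ± 0.15 in n_ZFP_n_Rpl, 0.10 ± 0.17 in MG and 0.18 ± 0.09 in n_ZFP_a_Rpl, past the threshold in none. Mpc2 fell in n_ZFP_n_Rpl (-0.15 ± 0.05), lost on leaving out any 1 of 6 of the 8 libraries (highest adjusted p = 0.0929), and it was positive there with library totals (0.0386).

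Of the glycogen genes, Pygm fell in hSyn (-0.41 ± 0.16), n_ZFP_n_Rpl (-0.50 ± 0.14) and n_ZFP_a_Rpl (-0.58 ± 0.19), and had -0.56 ± 0.25 in MG (adjusted p = 0.099). None of the 3 falls held with library totals. The hSyn call was also lost on leaving out any 1 of libraries ND 1, ND 2, RD 1, RD 2 and ND 0 (highest adjusted p = 0.187), and the n_ZFP_a_Rpl call on leaving out any 1 of libraries ND 2, ND 3, RD 2 and RD 3 (highest adjusted p = 0.0698). Pygb rose in n_ZFP_a_Rpl (0.15 ± 0.06, adjusted p = 0.0454), lost on leaving out any 1 of libraries ND 1, ND 2, ND 4, RD 2 and RD 3 (highest adjusted p = 0.132), and Gys1 passed in no IP (0.06 ± 0.09 in hSyn, 0.07 ± 0.07 in n_ZFP_n_Rpl, 0.05 ± 0.15 in MG and 0.02 ± 0.08 in n_ZFP_a_Rpl).

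In the Inputs, 8 rose and 9 fell in hSyn (background 22.5% higher and 21.6% lower, 44.1% in all), 5 and 15 in n_ZFP_n_Rpl (26.1% higher and 23.7% lower, 49.8% in all) and 4 and 15 in n_ZFP_a_Rpl (24.4% higher and 24.7% lower, 49.1% in all). Library totals gave 15 and 4, 17 and 7, and 9 and 6. The share of all genes was then 51.7% in hSyn, 61.1% in n_ZFP_n_Rpl and 61.8% in n_ZFP_a_Rpl. In all 3 Inputs, 7 genes fell (Aldoc, Eno2, Ldhb, Ldhd, Pfkfb2, Pygm and Slc16a7) and 3 rose (Gpi1, Pdha1 and Pdk1), beside 13.9% and 13% of the genes tested in all 3. With library totals the 3 that rose kept their calls and 2 of the 7, Aldoc and Ldhd, did. Ldhb then changed sign in n_ZFP_a_Rpl Input (0.0364). Pfkp had -0.16 ± 0.07 in hSyn Input (adjusted p = 0.0569).

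**Figure D4:**
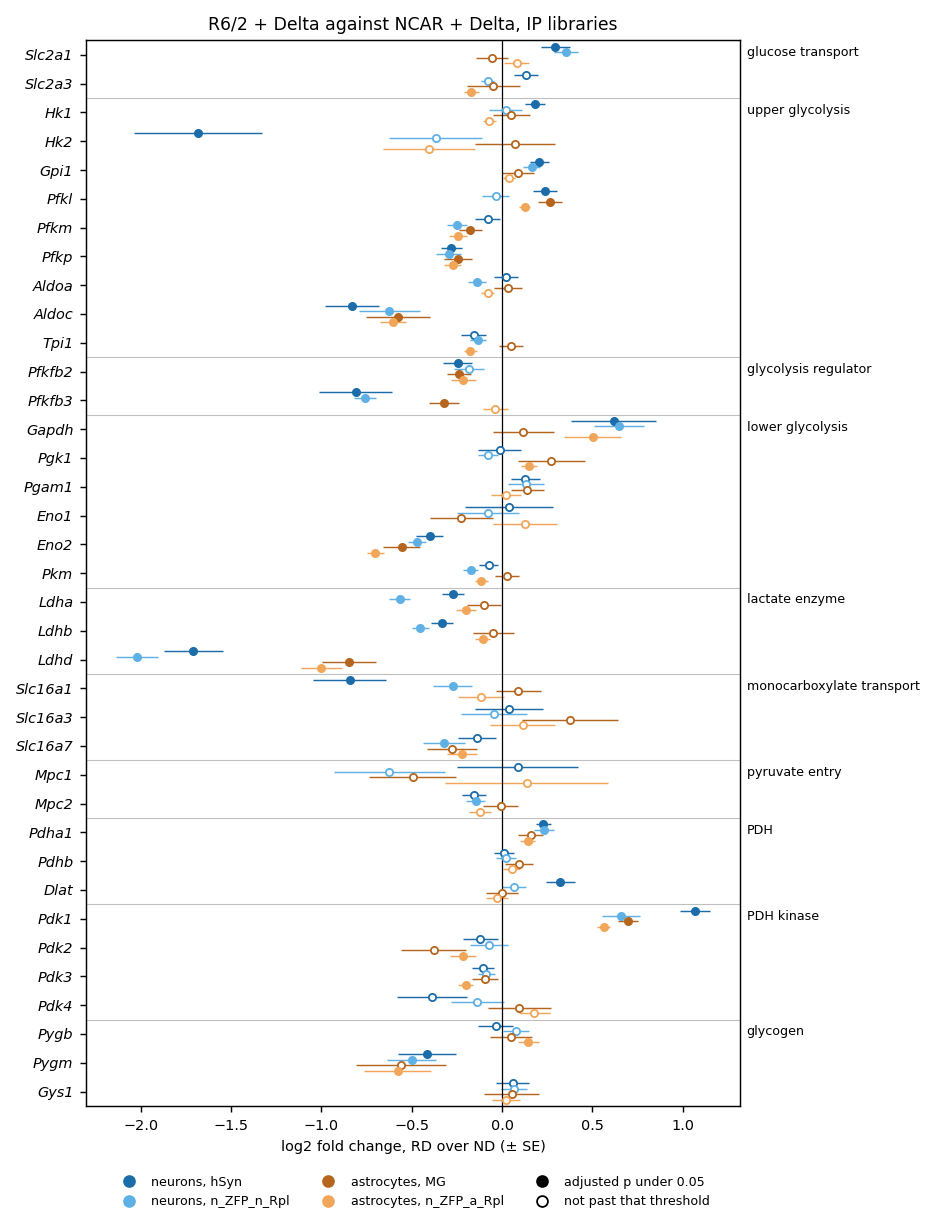
Log2 fold change of RD over ND for the 37 genes in the IPs of the 4 sets, ordered by role, with bars of 1 SE. Aldoc, Eno2, Ldhd and Pfkp lie left of 0 in all 4 sets and Pdk1 right of 0. The Hk2 and Slc16a1 points of hSyn lie left of those of the other sets.

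Whether the genotype difference itself differed between cell types was tested by the RD over ND change averaged over both neuron IPs less that averaged over both astrocyte IPs. Of the 37 genes, 2 were higher and 8 lower by this measure (background 11.5% higher and 9.77% lower, 21.2% in all). With library totals there were 5 and 7, beside 13.6% higher and 8.73% lower of all genes. Cell type and set cannot be told apart here, and both marker sums moved with genotype as given above. The difference was below 0 for Ldhd (-0.94 ± 0.15), Hk2 (-0.86 ± 0.28), Pfkfb3 (-0.60 ± 0.12), Slc16a1 (-0.54 ± 0.15), Pdk4 (-0.40 ± 0.14), Ldhb (-0.31 ± 0.05), Ldha (-0.27 ± 0.07) and Pgk1 (-0.25 ± 0.07), each with adjusted p at most 0.0478. It was above 0 for Slc2a1 (0.32 ± 0.08, adjusted p = 0.00353) and Dlat (0.21 ± 0.07, adjusted p = 0.0299). A value below 0 means that the RD over ND change was the lower one in the mean of the neuron sets. Both neuron sets need not share it. Hk2 and Dlat passed in RD against ND in hSyn IP only, and Slc16a1 fell further in hSyn than in n_ZFP_n_Rpl, as given above. Whether the neuron sets differ was not tested. Aldoc (-0.13 ± 0.10), Eno2 (0.20 ± 0.07), Pfkp (-0.03 ± 0.07) and Pdk1 (0.24 ± 0.09) did not pass (adjusted p = 0.379, 0.0501, 0.838 and 0.0614). The Pdk4 difference was lost on leaving out any 1 of 21 of the 31 libraries (highest adjusted p = 0.106), that of Hk2 on leaving out any 1 of libraries hSyn IP RD 2, n_ZFP_a_Rpl IP RD 2 and n_ZFP_n_Rpl IP ND 2 (highest adjusted p = 0.0505) and that of Dlat on leaving out any 1 of libraries MG IP ND 2, MG IP RD 3, hSyn IP RD 2, hSyn IP RD 3 and n_ZFP_a_Rpl IP RD 3 (highest adjusted p = 0.0747).

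The third comparison, R6/2 + ZFP against R6/2 + Delta, asks how the genes stood when the repressor was given to R6/2 mice. In the hSyn and MG IPs, 0 of the 37 genes passed by edgeR. The background was 0.00652% higher and 0.0326% lower, 0.0391% in all in hSyn and 0.013% higher and 0.0652% lower, 0.0782% in all in MG. At an unadjusted p under 0.05 there were 2 in hSyn and 7 in MG, beside 7.17% and 18% of all genes. DESeq2 called 0 in hSyn and 3 in MG, beside 0.15% and 2.61%. Without the 3 MG libraries that stood apart, 7 passed in MG, beside 15.3% of all genes. In the n_ZFP sets, 11 of the 37 rose and 9 fell in n_ZFP_a_Rpl IP (background 19.1% higher and 14.7% lower, 33.8% in all) and 7 rose and 2 fell in n_ZFP_n_Rpl IP (9.47% higher and 7.95% lower, 17.4% in all). Library totals gave 7 and 13, and 4 and 4, beside 40.2% and 22.1% of all genes in all. The share of the 37 was above that of all genes in n_ZFP_a_Rpl with either scaling, and in n_ZFP_n_Rpl it was near it with library totals. In both, 5 genes rose (Eno2, Ldha, Ldhd, Slc2a3 and Tpi1) and 2 fell (Gapdh and Slc2a1), beside 6.38% and 3.84% of the genes tested in both. With library totals all but Tpi1 kept their calls. The IPs have separate controls, and whether their responses differ was not tested.

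Ldhd was at 5.95, 6.21, 6.40 and 6.90 CPM in RZ and 1.47, 1.62, 1.91 and 1.96 CPM in RD in n_ZFP_n_Rpl IP, where ND libraries were at 5.94, 6.50, 7.59 and 8.29 CPM. RZ libraries lay above every RD library and met the lower end of the ND range. The rise was 1.87 ± 0.12 (adjusted p = 6.29e-08), the largest of the 37 genes in this IP. In n_ZFP_a_Rpl IP Ldhd was at 6.96, 7.64, 7.93 and 8.08 CPM in RZ and 4.77, 5.71 and 6.52 CPM in RD (0.43 ± 0.11, adjusted p = 0.00735), and in the Inputs it rose by 0.79 ± 0.16 and 0.65 ± 0.10 (n_ZFP_n_Rpl and n_ZFP_a_Rpl). Ldha was at 187, 194, 203 and 209 CPM in RZ and 148, 161, 162 and 178 CPM in RD in n_ZFP_n_Rpl IP (0.29 ± 0.06, adjusted p = 0.00353) and at 209.6, 209.9, 227 and 232 CPM in RZ and 167, 181 and 196 CPM in RD in n_ZFP_a_Rpl IP (0.27 ± 0.05, adjusted p = 0.00113). Ldhb rose in n_ZFP_n_Rpl (0.16 ± 0.05), lost on leaving out any 1 of libraries RD 1, RD 2, RZ 1 and RZ 4 (highest adjusted p = 0.0902), and had -0.03 ± 0.04 in n_ZFP_a_Rpl (adjusted p = 0.546).

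Eno2 was at 1027, 1051, 1083 and 1092 CPM in RZ and 697, 721 and 770.4 CPM in RD in n_ZFP_a_Rpl IP, with ND at 1135, 1158, 1221 and 1234 CPM. RZ lay between the other groups, with a rise of 0.54 ± 0.05 over RD (adjusted p = 5.68e-07). In n_ZFP_n_Rpl IP it was at 1024, 1129, 1174 and 1179 CPM in RZ and 902, 955, 978 and 1008 CPM in RD (0.23 ± 0.05, adjusted p = 0.00519). Slc2a3 rose by 0.38 ± 0.04 in n_ZFP_a_Rpl and 0.18 ± 0.03 in n_ZFP_n_Rpl, and Tpi1 by 0.19 ± 0.04 and 0.14 ± 0.04, the last of these lost on leaving out any 1 of 7 of the 8 libraries (highest adjusted p = 0.131). Neuron markers in n_ZFP_a_Rpl IP summed to 7330 to 7650 CPM in RZ, 5100 to 5530 in RD and 8670 to 8980 in ND, and astrocyte markers to 10800 to 11700 in RZ, 13300 to 14400 in RD and 17100 to 21300 in ND. In n_ZFP_n_Rpl IP neuron markers summed to 8040 to 8310 in RZ and 6390 to 7250 in RD. In n_ZFP_a_Rpl IP, Eno2 and Slc2a3 were higher in RZ as the neuron markers were, and Aldoc was lower as the astrocyte markers were. The part of the markers in these results was not tested.

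Slc2a1 fell in n_ZFP_a_Rpl IP, at 35.8, 38.6, 41.4 and 43.3 CPM in RZ and 46.3, 52.5 and 57.2 CPM in RD (-0.39 ± 0.07, adjusted p = 0.000508), and in n_ZFP_n_Rpl IP, at 21.3, 22.7, 23.1 and 23.6 CPM in RZ and 26.4, 27.2, 27.6 and 28.9 CPM in RD (-0.28 ± 0.07, adjusted p = 0.01). RZ lay below RD without overlap in both. In n_ZFP_a_Rpl Pygb fell by 0.38 ± 0.06 and Gys1 by 0.27 ± 0.08 on the log2 scale, with Pygm at -0.14 ± 0.18 (adjusted p = 0.603). Pdk1 was at 53.5, 53.5, 53.9 and 56.5 CPM in RZ and 70.0, 71.1 and 73.6 CPM in RD (-0.40 ± 0.04, adjusted p = 1.45e-06), and Pdk4 fell (-0.35 ± 0.09), as did Pdk2 (-0.22 ± 0.07), lost on leaving out any 1 of libraries RD 2, RD 3, RZ 2, RZ 3 and RZ 4 (highest adjusted p = 0.071). Aldoc fell in RZ too, at -0.24 ± 0.07 (adjusted p = 0.0166), lost on leaving out any 1 of libraries RD 3 and RZ 4 (highest adjusted p = 0.089). The Gys1 call was lost on leaving out library RD 3 (highest adjusted p = 0.0977). Pfkp (0.23 ± 0.05), Slc16a7 (0.39 ± 0.08) and Pdk3 (0.17 ± 0.04) rose there, and so did Slc16a3 (0.52 ± 0.18), Pkm (0.11 ± 0.04) and Hk1 (0.09 ± 0.03), whose calls were lost on leaving out any 1 of 5, 5 and 7 of the 7 libraries. In n_ZFP_n_Rpl, Pfkfb3 rose by 0.21 ± 0.06, lost on leaving out any 1 of libraries RD 2, RZ 1 and RZ 3 (highest adjusted p = 0.0835), and Pdk1 did not pass (-0.30 ± 0.10, adjusted p = 0.0606). The uncertain Gapdh had -0.65 ± 0.14 in n_ZFP_n_Rpl and -0.45 ± 0.16 in n_ZFP_a_Rpl.

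**Figure D5:**
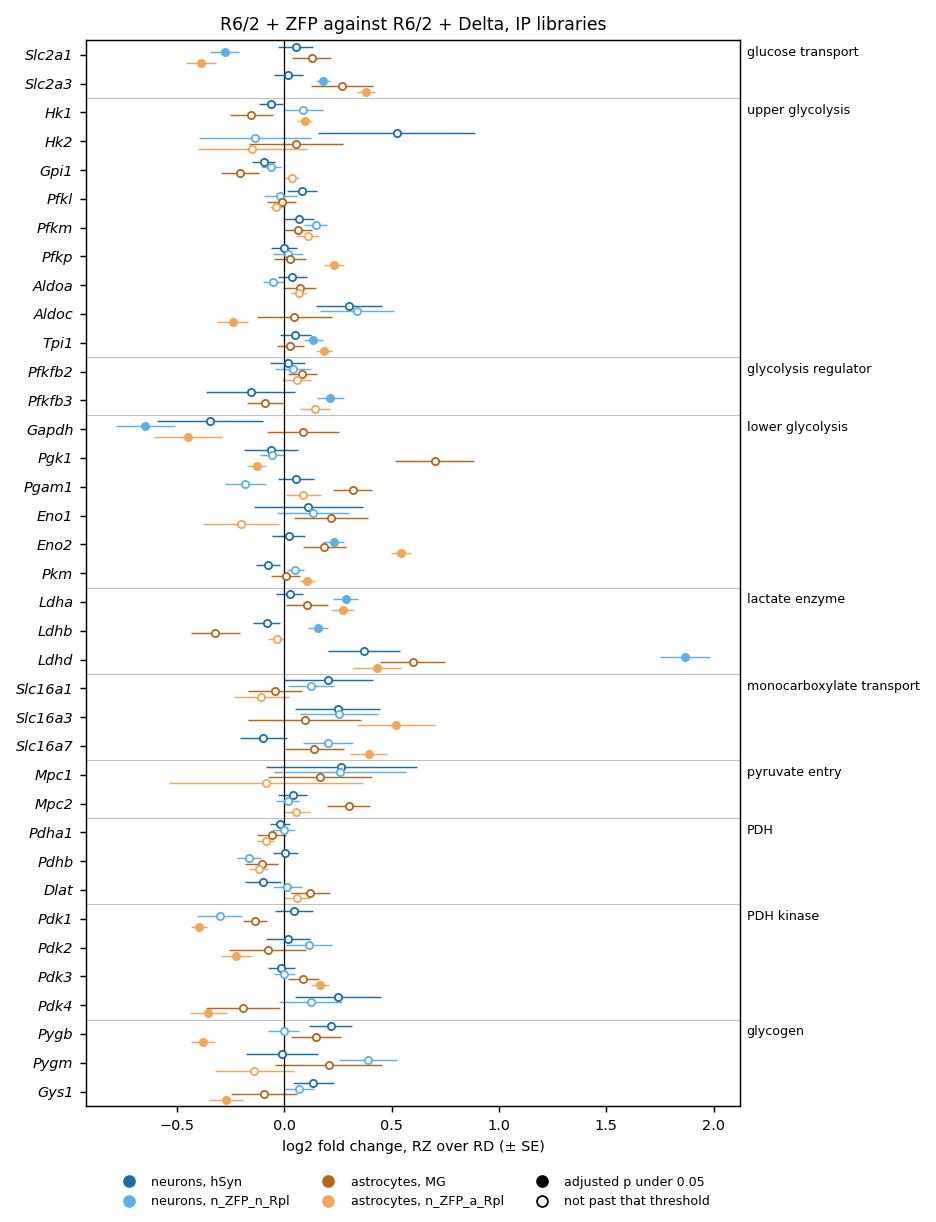
Log2 fold change of RZ over RD for the 37 genes in the IPs of the 4 sets, ordered by role, with bars of 1 SE. The n_ZFP sets hold all calls. Ldhd in n_ZFP_n_Rpl lies furthest right.

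In the Inputs, 0 of the 37 passed in hSyn by edgeR (background 0% higher and 0% lower, 0% in all, with 1 gene at an unadjusted p under 0.05 and 0 by DESeq2), 7 rose and 2 fell in n_ZFP_a_Rpl (11.1% higher and 5.03% lower, 16.1% in all), and 3 rose and 0 fell in n_ZFP_n_Rpl (2.49% higher and 0.828% lower, 3.32% in all). Library totals gave 4 and 4 in n_ZFP_a_Rpl, and 1 and 1 in n_ZFP_n_Rpl, beside 26.5% and 3.85% of all genes in all. Eno2, Ldha and Ldhd rose in both n_ZFP Inputs and 0 fell in both, beside 2.25% and 0.501% of the genes tested in both. Ldhd alone kept its calls with library totals. Pdk1 (-0.39 ± 0.04) and Pygb (-0.14 ± 0.04) fell in n_ZFP_a_Rpl Input.

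The fourth comparison, NCAR + ZFP against NCAR + Delta, gives the difference with ZFP where the R6/2 genotype is absent. In n_ZFP_n_Rpl IP 2 rose and 3 fell (background 2.86% higher and 4.5% lower, 7.36% in all; 2 and 0 with library totals), in n_ZFP_a_Rpl IP 0 rose and 1 fell (1.2% higher and 0.872% lower, 2.07% in all), in MG IP 3 rose and 0 fell (3.68% higher and 3.36% lower, 7.05% in all; 5 and 0 with library totals), and in hSyn IP 0 passed (0% higher and 0.0261% lower, 0.0261% in all; 1 at an unadjusted p under 0.05 and 0 by DESeq2). With library totals, 7.94% of all genes passed in n_ZFP_n_Rpl IP and 9.63% in MG IP. In the 3 Inputs 0 passed by edgeR, with 0, 6 and 5 at an unadjusted p under 0.05 in hSyn, n_ZFP_a_Rpl and n_ZFP_n_Rpl and 0, 1 and 2 by DESeq2. The background was 0% higher and 0.00622% lower, 0.00622% in all in hSyn, 0.475% higher and 0.482% lower, 0.957% in all in n_ZFP_a_Rpl, and 0.695% higher and 2.33% lower, 3.03% in all in n_ZFP_n_Rpl Input. The genes were Ldhd (0.60 ± 0.11) and Pygb (0.27 ± 0.07) up and Aldoa (-0.18 ± 0.05), Ldhb (-0.22 ± 0.05) and Pkm (-0.16 ± 0.04) down in n_ZFP_n_Rpl, Pdk1 (-0.15 ± 0.04) down in n_ZFP_a_Rpl, and Mpc2 (0.38 ± 0.10), Pfkfb3 (0.35 ± 0.08) and Pgk1 (0.70 ± 0.19) up in MG. All but Ldhd and Ldhb lost their call on leaving out any 1 of 4 to 7 of the 8 libraries. In MG, 9 passed without the 3 libraries that stood apart, beside 22.7% of all genes. Rn45s was higher in MG ND than in MG NZ, as given above, and its part was not tested.

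Whether ZFP acted differently in the genotypes was tested by the interaction, the RZ over RD change less the NZ over ND change. In n_ZFP_a_Rpl IP 6 genes were higher and 2 lower (background 11.4% higher and 5.07% lower, 16.5% in all), in n_ZFP_n_Rpl IP 7 and 2 (8.47% higher and 4.68% lower, 13.1% in all), and in hSyn and MG IPs 0 (0% of all genes in each; 0 and 1 at an unadjusted p under 0.05, and 0 by DESeq2 in both). Library totals gave 2 and 5, and 3 and 5, beside 8.3% higher and 13% lower of all genes in n_ZFP_a_Rpl and 5.07% and 13.8% in n_ZFP_n_Rpl. Eno2 (0.48 ± 0.06 and 0.30 ± 0.07), Ldha (0.28 ± 0.07 and 0.44 ± 0.08), Pkm (0.17 ± 0.05 and 0.21 ± 0.06) and Slc2a3 (0.34 ± 0.06 and 0.16 ± 0.05) were higher in both n_ZFP IPs, n_ZFP_a_Rpl given first, and Pdk1 was lower in both (-0.24 ± 0.05 and -0.51 ± 0.15). In n_ZFP_n_Rpl the interaction passed for Ldhd (1.27 ± 0.16, adjusted p = 0.000205), Ldhb (0.38 ± 0.07), Pfkfb3 (0.29 ± 0.09) and the uncertain Gapdh (-0.73 ± 0.20), and in n_ZFP_a_Rpl for Pfkp (0.22 ± 0.06), Tpi1 (0.20 ± 0.05) and Pygb (-0.32 ± 0.08). The 4 higher and 1 lower in both stand beside 5.19% and 0.976% of the genes tested in both. With library totals Pdk1 kept its calls, and each of the 4 lost at least 1. Differences between these IPs were not tested. The n_ZFP_n_Rpl interactions of Slc2a3, Pdk1 and Pfkfb3 were each lost on leaving out any 1 of 10 or more of the 16 libraries.

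Against NCAR + Delta, R6/2 + ZFP gives the difference left with ZFP. In n_ZFP_a_Rpl IP 4 were higher and 9 lower (background 11.3% higher and 13.1% lower, 24.4% in all), in n_ZFP_n_Rpl IP 3 and 7 (14.7% higher and 16.5% lower, 31.3% in all), in hSyn IP 7 and 12 (25.8% higher and 25.4% lower, 51.2% in all) and in MG IP 5 and 5 (19.4% higher and 17.6% lower, 37% in all), or 12 in all without the 3 MG libraries that stood apart, beside 41.7% of all genes. Library totals gave 11 and 6, 9 and 4, 15 and 5, and 12 and 1. In the same order, 33.6%, 43.1%, 61.3% and 47.6% of all genes then passed. These share ND libraries with the RD comparison and RZ libraries with the comparison of RZ and RD. Of the 5 genes that moved in all 4 IPs, Ldhd in n_ZFP_n_Rpl had -0.15 ± 0.11 (adjusted p = 0.308), beside -2.02 ± 0.12 for RD against ND. Pdk1 there had 0.36 ± 0.11 (adjusted p = 0.0181), lost on leaving out any 1 of libraries ND 3 and ND 4 (highest adjusted p = 0.0579), and in n_ZFP_a_Rpl 0.17 ± 0.04 (adjusted p = 0.0034). Eno2 had -0.16 ± 0.04 in n_ZFP_a_Rpl (adjusted p = 0.0133, not past the threshold with library totals) and -0.24 ± 0.05 in n_ZFP_n_Rpl (adjusted p = 0.00189), and Aldoc -0.85 ± 0.07 (adjusted p = 6.65e-07) and -0.28 ± 0.17 (adjusted p = 0.229).

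Other genes of these pathways were counted from lists of further glycolytic, glycogen, pyruvate and NADH shuttle, pentose phosphate, and energy and hypoxia regulator genes. Of all genes, 33.2% were higher and 29.9% lower in n_ZFP neurons against astrocytes, and 31% and 29.1% in hSyn against MG. Between cell types, the other glycogen genes had 2 higher and 13 lower of 20 tested in n_ZFP neurons against astrocytes, and 0 higher and 16 lower of 20 in hSyn against MG, with median log2 differences of -0.58 and -0.81 beside 0.03 and 0.02 for all genes. Among those with the largest differences in the n_ZFP sets were Phkg1 (-2.70 ± 0.15) and Phka1 (-2.42 ± 0.08), phosphorylase kinase subunits, and Ppp1r3c (-2.41 ± 0.13), which targets a phosphatase to glycogen. After subtraction of Input, 2 higher and 13 lower of 20 of these glycogen genes were called, beside 38% higher and 29.3% lower of all genes. The other glycolysis genes had 7 higher and 5 lower of 19 and 5 higher and 6 lower of 18 in the n_ZFP comparison and in hSyn against MG, and among them Slc2a4, the insulin-responsive GLUT4, was lower in neurons (-3.51 ± 0.29 and -1.23 ± 0.29). The pyruvate and NADH shuttle genes had 4 higher and 11 lower of 20 and 4 higher and 9 lower of 20, the pentose phosphate genes 1 higher and 4 lower of 8 and 1 higher and 3 lower of 8, with the transketolase Tkt lower in neurons (-0.89 ± 0.05 and -1.05 ± 0.06), and the energy and hypoxia regulators 5 higher and 7 lower of 14 and 5 higher and 7 lower of 14, with Epas1, the hypoxia-inducible factor subunit, lower in neurons (-2.68 ± 0.13 and -1.93 ± 0.20).

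In RD against ND, 51% of all genes passed in hSyn IP, 51.4% in n_ZFP_n_Rpl, 33.5% in MG and 45.3% in n_ZFP_a_Rpl. The other glycolysis genes had 3 higher and 6 lower of 17 in hSyn, 4 higher and 8 lower of 18 in n_ZFP_n_Rpl, 2 higher and 4 lower of 17 in MG and 2 higher and 3 lower of 16 in n_ZFP_a_Rpl. The other pyruvate and NADH shuttle genes had 7 higher and 4 lower of 20, 6 higher and 6 lower of 20, 1 higher and 3 lower of 20 and 3 higher and 5 lower of 20 in the same order of sets. The pentose phosphate genes had 1 higher and 1 lower of 8, 3 higher and 2 lower of 8, 0 higher and 1 lower of 8 and 2 higher and 3 lower of 8, and the energy and hypoxia regulators 2 higher and 6 lower of 14, 2 higher and 6 lower of 14, 2 higher and 2 lower of 14 and 2 higher and 6 lower of 14. The other glycogen genes had 5 higher and 5 lower of 20, 6 higher and 5 lower of 19, 3 higher and 1 lower of 20 and 3 higher and 3 lower of 20. Falls in all 4 IPs, given in the order hSyn, n_ZFP_n_Rpl, MG and n_ZFP_a_Rpl, were those of Gpd1, cytosolic glycerol-3-phosphate dehydrogenase, which returns cytosolic NADH to NAD+ (-1.45 ± 0.21, -1.57 ± 0.17, -1.48 ± 0.19 and -1.50 ± 0.19), Pdp1, the phosphatase that reverses pyruvate dehydrogenase kinases (-1.49 ± 0.15, -1.41 ± 0.10, -1.04 ± 0.11 and -0.84 ± 0.07), and Me2, mitochondrial malic enzyme (-1.14 ± 0.10, -0.76 ± 0.11, -0.38 ± 0.08 and -0.35 ± 0.08). The kinase Pdk1 rose and the opposing phosphatase Pdp1 fell in each IP. Of the other kinases, Pdk2 and Pdk3 fell in n_ZFP_a_Rpl IP only and Pdk4 passed in no IP, while Pdha1 rose in all IPs but MG, as given above. The activity of pyruvate dehydrogenase was not measured. The rate-limiting pentose phosphate enzyme G6pdx also fell in all 4 (-0.73 ± 0.07, -0.38 ± 0.06, -0.29 ± 0.08 and -0.36 ± 0.06), as did Pgam2, the muscle phosphoglycerate mutase (-1.67 ± 0.28, -1.68 ± 0.25, -1.17 ± 0.25 and -1.91 ± 0.20), and Myc, a transcription factor known to act on glycolytic genes (-1.30 ± 0.17, -0.51 ± 0.15, -0.55 ± 0.15 and -0.46 ± 0.16). Slc25a13, an aspartate carrier of the shuttle, rose in n_ZFP_n_Rpl (0.87 ± 0.13), MG (0.91 ± 0.15) and n_ZFP_a_Rpl (0.59 ± 0.13).

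In RZ against RD in n_ZFP_a_Rpl IP, Gpd1 (1.11 ± 0.19), Pdp1 (0.58 ± 0.07), Me2 (0.39 ± 0.08) and Pgam2 (1.39 ± 0.20) rose, with Pdk1 lower as given above. The other glycogen genes had 1 higher and 10 lower of 20 there, with a median of -0.31 beside -0.004 for all genes, and 0 higher and 2 lower of 19 in n_ZFP_n_Rpl. The called genes of this list included Stbd1 (0.91 ± 0.24), a glycogen-binding protein, on the higher side and Phkg1 (-0.46 ± 0.08) and Ppp1r3c (-0.38 ± 0.08) on the lower. The astrocyte markers given above were lower too, and their part was not tested. In n_ZFP_a_Rpl IP, where 19.1% of all genes were higher and 14.7% lower, the other glycolysis genes had 3 higher and 1 lower of 16 and the pyruvate and NADH shuttle genes 3 higher and 5 lower of 20. In n_ZFP_n_Rpl IP, 9.47% of all genes were higher and 7.95% lower. There the other glycolysis genes had 1 higher and 2 lower of 18 and the pyruvate and NADH shuttle genes 1 higher and 1 lower of 20. The pentose phosphate genes had 0 higher and 1 lower of 8 in n_ZFP_a_Rpl and 0 higher and 0 lower of 8 in n_ZFP_n_Rpl, and the energy and hypoxia regulators 3 higher and 2 lower of 14 and 0 higher and 1 lower of 14.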

How the data were processed

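RNA of 110 RiboTag libraries from mice was sequenced, and the values used are raw counts per gene symbol as deposited by the authors. STAR, HTSeq and the mm10 build are named per the submitters' processing notes. Versions, options, annotation and strand setting are not given there. Without a stated strand setting, reads of overlapping genes cannot be told apart. Of 24060 rows, 4 with repeated symbols were left out. Groups were taken from the sample titles. Total counts ran from 26.4 to 72.6 M per library.

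Counts were fitted with edgeR 4.0.16 in R 4.3.3 (TMM, filterByExpr with a minimum count of 10 and a minimum total of 15, robust quasi-likelihood F-test, Benjamini-Hochberg over all genes tested, threshold 0.05), with 1 fit per set and fraction over its 4 groups, and joint fits for comparisons across fractions or sets. The scripts were tested on simulated data. The alternatives were DESeq2 1.42.0, RLE factors, library totals, no filter, only the groups compared, the replicate block, glmTreat above 2-fold, and each library left out in turn. The 3 MG libraries were left out together as an alternative chosen after seeing the data. No 2 libraries of a set and fraction agreed within sampling noise (their counts differed by at least 5.59 times the Poisson variance over genes).

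Same-numbered IP and Input libraries deviated together in n_ZFP_a_Rpl (correlations of 0.4 to 0.6 over 15 pairs) and n_ZFP_n_Rpl (0.45 to 0.68 over 16). In hSyn the correlations ran over -0.19 to 0.64 (14 pairs), with a median of 0.43. Libraries with other numbers had medians of -0.17 in n_ZFP_a_Rpl, -0.18 in n_ZFP_n_Rpl and -0.16 in hSyn. Most same-numbered libraries of hSyn thus deviated together too, but there the range overlapped that of other numbers (-0.47 to 0.56). The counts reported come from the fits without the block, and those of IP against Input with it are in the closing section. Comparisons across sets, that of the IP-over-Input ratios included, were fitted without the block only. The p-values of the ratios thus leave the pairing of IP and Input libraries out. The members and the lists (other glycolysis, other glycogen, other pyruvate and NADH shuttle, pentose phosphate, energy and hypoxia regulators, and markers of astrocytes, neurons, microglia, endothelium, oligodendrocytes and their precursors) were chosen with earlier results of these data known. Any member could be named, and from each other list up to 4 genes per comparison, those past the threshold with the largest fold change; 1 such gene is not reported here. Promoter sequences are RefSeq's for GRCm38.p6.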

Additional observations from a re-analysis of the deposited data

Results flagged for a closer look

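For the members that changed in all 4 IPs, 13 of 120 combinations of gene and group held 1 library far from the others, judged by its gap to the nearest library as a share of the range of the group. Chance gives about 1 in 20. For Aldoc, these were libraries at 660.0 CPM in hSyn IP NZ, 814.3 CPM in hSyn Input ND, 638.7 CPM in n_ZFP_a_Rpl Input ND and 325.4 CPM in n_ZFP_n_Rpl IP RZ. For Eno2, these were libraries at 991.5 CPM in n_ZFP_a_Rpl Input NZ and 659.3 CPM in n_ZFP_a_Rpl Input RZ. For Ldhd, these were libraries at 5.672 CPM in n_ZFP_a_Rpl Input ND, 11.45 CPM in n_ZFP_n_Rpl IP NZ and 4.761 CPM in n_ZFP_n_Rpl Input RZ. For Pdk1, these were libraries at 56.51 CPM in n_ZFP_a_Rpl IP RZ and 64.86 CPM in n_ZFP_n_Rpl IP NZ. For Pfkp, these were libraries at 339.4 CPM in MG IP NZ and 347.8 CPM in n_ZFP_n_Rpl Input ND.

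The ZFP difference was not the same in R6/2 and NCAR mice for several members, by the interaction in edgeR. On the log2 scale the differences in n_ZFP_a_Rpl IP were those of Eno2 (0.48), Ldha (0.28), Pdk1 (-0.24), Pfkp (0.22), Pkm (0.17), Pygb (-0.32), Slc2a3 (0.34) and Tpi1 (0.20). In n_ZFP_n_Rpl IP they were those of Eno2 (0.30), Gapdh (-0.73), Ldha (0.44), Ldhb (0.38), Ldhd (1.27), Pdk1 (-0.51), Pfkfb3 (0.29), Pkm (0.21) and Slc2a3 (0.16). A positive value means that RZ over RD exceeded NZ over ND. Of the 4 members higher in both IPs, 0 kept both calls with library totals, while Pdk1, lower in both, did. The n_ZFP_n_Rpl calls of Slc2a3, Pdk1 and Pfkfb3 were also lost on leaving out single libraries, as given above.

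The RD over ND change differed between neuron and astrocyte IPs for Dlat (0.21), Hk2 (-0.86), Ldha (-0.27), Ldhb (-0.31), Ldhd (-0.94), Pdk4 (-0.40), Pfkfb3 (-0.60), Pgk1 (-0.25), Slc16a1 (-0.54) and Slc2a1 (0.32), given as the neuron mean less the astrocyte mean on the log2 scale. Of these, Dlat and Hk2 passed in RD against ND in hSyn IP only. The neuron IP over Input ratio differed from the astrocyte one in the n_ZFP sets for 26 of the 37 genes.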

How the results depend on the processing

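Of the values of single genes, 7281 under another setting and 16650 on leaving out 1 library stayed on their side of the threshold. A further 264 and 415 were no longer past it, and 198 and 103 newly passed. The values that stayed include some past the threshold in neither fit, whose direction may have changed. The 264 include calls of IP against Input lost under glmTreat, which tests a minimum fold change and so asks a stricter question. Another 27 changed sign and were past the threshold in at least 1 of the fits compared, all with library totals in place of TMM. For RZ against ND, the log2 values were Pfkm 0.18 and Pkm 0.0446 in hSyn IP, and Pkm 0.0026 in n_ZFP_n_Rpl IP. For RD against ND, the log2 values were Aldoa 0.0884, Hk1 0.0968, Ldhb 0.0595 and Pkm 0.0518 in n_ZFP_a_Rpl IP, and Aldoa 0.14, Ldha 0.0599, Ldhb 0.0364, Pkm 0.0618, Slc2a3 0.0565 and Tpi1 0.0286 in n_ZFP_a_Rpl Input, and Aldoa 0.0455, Mpc2 0.0386, Pkm 0.0104, Slc2a3 0.10 and Tpi1 0.0511 in n_ZFP_n_Rpl IP, and Pdk3 0.0257 and Pkm 0.14 in n_ZFP_n_Rpl Input. For IP against Input, the log2 values were Pgk1 -0.0395 and Pygm -0.19 in hSyn, and Pdk1 -0.15 and Slc2a1 -0.17 in n_ZFP_a_Rpl, and Pdk1 -0.18, Pdk2 -0.0379 and Slc16a7 -0.18 in n_ZFP_n_Rpl. The cause was not tested.

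The other counts that moved by over 1.5 times were these. In MG IP, RD against ND gave 15 genes with only those groups in the fit and 14 without the 3 libraries that stood apart, in place of 9. There, RZ against RD gave 3 by DESeq2, 7 without the 3 libraries and 0 to 6 on leaving out single libraries, in place of 0. In MG NZ against ND, 5 passed with library totals, by DESeq2 and with only those groups, 9 without the 3 libraries, 0 with the replicate number as a block, and 0 to 5 on leaving out libraries, in place of 3. In n_ZFP_a_Rpl IP, NZ against ND gave 0 with no filter on low counts, 3 by DESeq2, 0 with only those groups and 0 to 3 on leaving out libraries, in place of 1, and in its Input 1 by DESeq2. In n_ZFP_n_Rpl IP, RZ against RD gave 14 with only those groups in place of 9, and NZ against ND 2 with library totals, 1 with only those groups and 2 to 5 on leaving out libraries, in place of 5. In its Input, NZ against ND gave 2 by DESeq2 and 0 to 1 on leaving out libraries, and RZ against RD 1 to 3. Leaving out libraries gave 5 to 10 for RZ against RD in n_ZFP_a_Rpl Input and for the interaction in n_ZFP_n_Rpl IP. With a minimum of 2-fold, IP against Input gave 1 in hSyn, 9 in n_ZFP_a_Rpl and 1 in n_ZFP_n_Rpl. With the replicate block, IP against Input gave 34 in hSyn, 33 in n_ZFP_a_Rpl and 35 in n_ZFP_n_Rpl, against 33, 34 and 35 without it. Besides MG NZ against ND, no count that was fitted with the block moved by over 1.5 times. Between conditions the same number did not pair libraries (median correlations of -0.03 to 0.06). Depth limits Gapdh, Eno1, Hk2, Ldhd and Slc16a3 most, which had the lowest counts. Cell type and set cannot be told apart, and replicates may be technical. Fewer cells, less RNA per cell and changed expression of the marker genes cannot be told apart either.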
